A study of Mus musculus with 24 samples.

Results

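The Hsd3b genes encode the 3β-hydroxysteroid dehydrogenase family, and 6 of them, Hsd3b1, Hsd3b2, Hsd3b3, Hsd3b5, Hsd3b6 and Hsd3b7, were read here in mouse liver. They were picked by name among the 37325 genes of a 1-colour Agilent microarray, where they hold 9 of the 56605 probes outside the controls. Hsd3b5 was the reason for the choice, because its signal was known to fall more with fasting in the knockout livers, so its values are given as a description with no test. The other 5 genes came in by their names and were tested. Where a gene had several probes, the brightest over the 24 arrays stood for it in counts of genes.

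All 24 livers came from 12-week-old male mice carrying floxed alleles of Pik3ca, the gene of the phosphoinositide 3-kinase catalytic subunit p110α. The p110aLWT mice (LWT) were littermates without Cre, and the p110aLKO mice (LKO) carried an albumin-Cre transgene, whose promoter is that of a hepatocyte gene. Which liver cells lost the floxed segment was not measured here. Mice of each genotype either ate freely (Fed) or went without food for 24 h (Fasted), and all were killed at ZT16, in the dark phase, with 6 mice in each of the 4 groups. The RNA was from whole liver, so fewer cells of a type and less RNA per cell cannot be told apart.

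The classical enzymes of this family oxidise the 3-hydroxyl group of a steroid and shift its neighbouring double bond, a step that every active progestogen, androgen, mineralocorticoid and glucocorticoid needs. Rodents carry a cluster of such genes, and some of its members work mainly in the other direction, as reductases that inactivate steroids. In mouse liver the best known of these is Hsd3b5, an enzyme of adult males whose expression depends on the male pattern of growth hormone secretion. Hsd3b7 belongs to the same protein family but acts on sterols in the synthesis of bile acids.

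Of the 6 genes, 5 lie in a cluster on chromosome 3, all on the minus strand. In RefSeq (GRCm38.p6) they run in the order Hsd3b5 (chr3:98618636-98645534), Hsd3b2 (chr3:98711107-98724543), Hsd3b3 (chr3:98741476-98764540), Hsd3b6 (chr3:98805504-98814443) and Hsd3b1 (chr3:98842356-98859794). Hsd3b7 is on chromosome 7 (chr7:127800609-127803802). Neighbours as alike as these can share signal on an array, so the probes were compared first. Of the 9 probes, only that of Hsd3b5 shared a run of 16 or more bases with another probe of the array, 23 bases shared with a probe of Hsd3b4, a relative known from kidney. Their ends are printed here with the shared run in capitals.
Hsd3b5 (A_55_P2111980, last 30 of 60 bases): ttgATACCTTTATGAAGCTCAAAGAAcaat
Hsd3b4 (A_55_P1969665, 30 of 60 bases): cccATACCTTTATGAAGCTCAAAGAAaaga
The Hsd3b4 probe itself did not pass the filter on low signals, which asked that 5 or more of a group's 6 arrays read well above background. Among the other 8 probes the longest run shared with any probe of the family was 7 bases. How much of each signal came from another transcript was not tested, because no transcript sequences were used here.

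The positions and accessions of its probes set Hsd3b2 apart. Its 3 probes sit apart on the minus strand of mm9, the build in which the scanner files place them. Probe A_55_P2023114 (chr3:98515703-98515762) and probe A_55_P2036547 (chr3:98515054-98515113) were assigned to the RefSeq transcript NM_153193. The brightest, A_55_P2132812 (chr3:98513725-98513784), was listed with the Ensembl transcript ENSMUST00000107022 and GenBank entries but no RefSeq accession, and lies 1978 and 1329 bases further along the direction of transcription. The probe sequences behind these readings follow, beside those of 2 relatives whose probes can be set against them.
Hsd3b2 (A_55_P2023114, whole): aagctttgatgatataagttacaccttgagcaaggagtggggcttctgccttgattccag
Hsd3b2 (A_55_P2132812, last 30 of 60 bases): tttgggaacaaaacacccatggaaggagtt
Hsd3b6 (A_52_P253567, whole): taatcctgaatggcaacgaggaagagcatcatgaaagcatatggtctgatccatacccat
Hsd3b1 (A_66_P106542, whole): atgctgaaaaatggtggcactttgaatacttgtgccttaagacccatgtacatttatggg

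Signals are given below as normalized log2 values, on which a difference of 1 is a factor of 2. The sums of cell markers are an exception and were taken before normalization. Levels of different probes are not compared, since each probe has its own brightness. Between 54.7% and 63.0% of the spots of an array were well above background. All 9 probes passed the filter, and 7 of them were well above background on all 24 arrays, the exceptions being the 2 of Hsd3b1. The 3 slides held 2 arrays of every group, and slide was a term of the fit. A gene was called changed at an adjusted p of at most 0.05 (limma, Benjamini-Hochberg over 32197 probes) and more than 1.5-fold. The Pik3ca probe averaged 11.91 ± 0.21 in LWT Fed, 12.54 ± 0.26 in LKO Fed, 12.28 ± 0.14 in LWT Fasted and 12.26 ± 0.19 in LKO Fasted (SD, n = 6). It thus read higher in LKO in fed mice, and the fasted means differed by less than their SDs. Whether this probe lies in the deleted segment was not examined, so it checks no label. The study typed the deletion by PCR on DNA, outside these files.

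**Figure D1:**
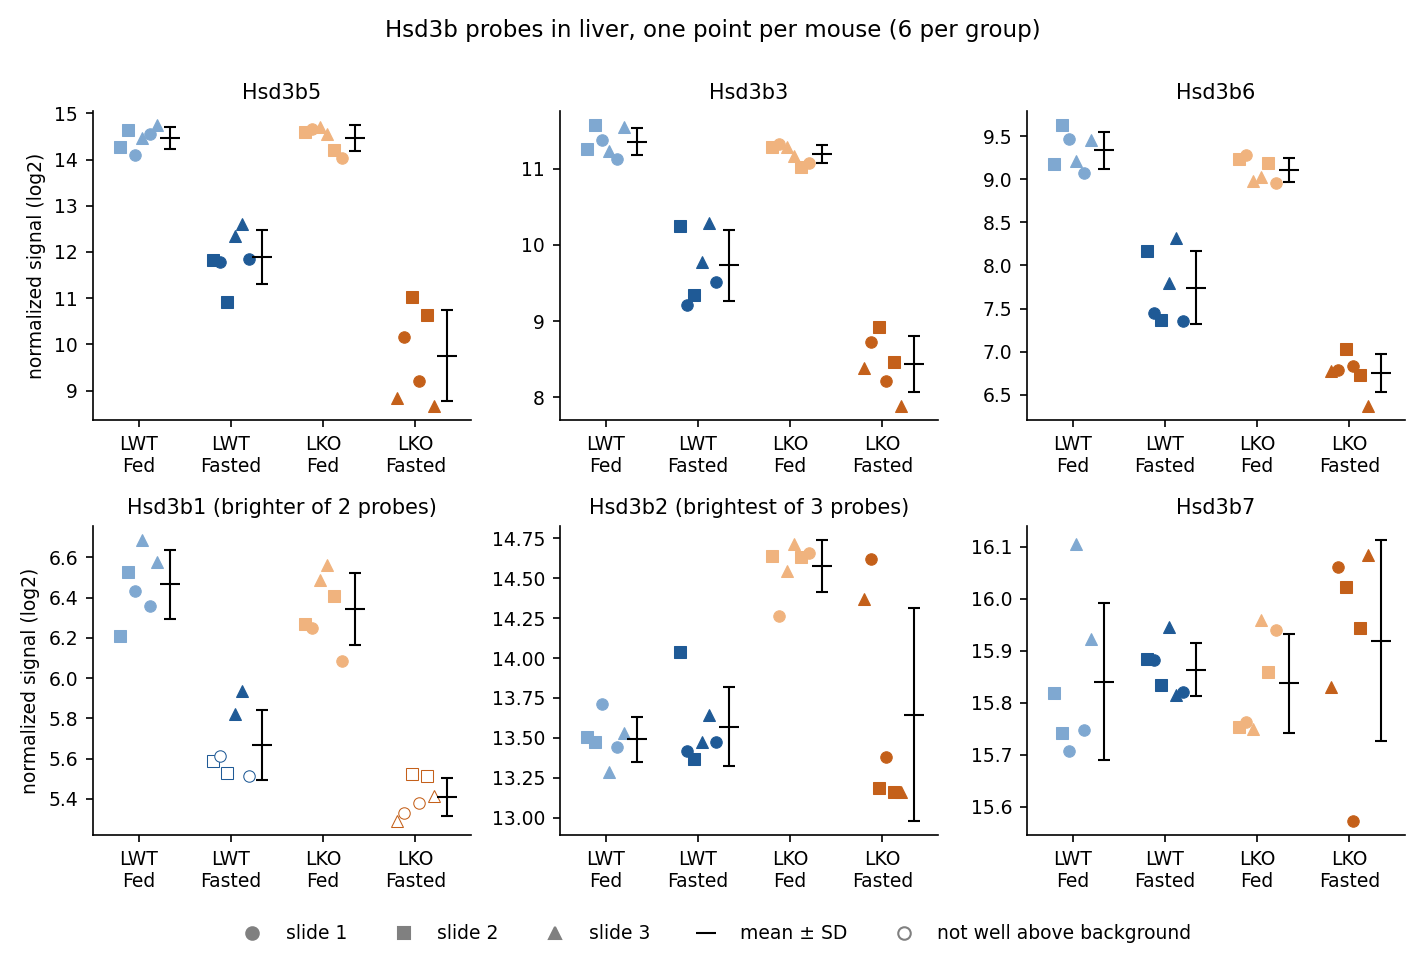
Normalized log2 signal (vertical axes, a separate range for each gene) of the 6 Hsd3b genes in the 4 groups. Each point is 1 mouse, its shape gives the slide, open points were not well above background, and bars show mean ± SD (n = 6). Hsd3b5, Hsd3b3 and Hsd3b6 fell from about the same fed level to a lower fasted level in LKO than in LWT, whereas Hsd3b7 stayed between 15.57 and 16.10 on every array.

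Hsd3b5, the reductase of male liver, was the member with the widest range. In LWT Fed livers its signal had a lowest, median and highest value of 14.10, 14.51 and 14.74, and in LWT Fasted livers of 10.92, 11.84 and 12.62. In LKO Fed livers the values were 14.03, 14.58 and 14.71, and in LKO Fasted livers 8.66, 9.68 and 11.02. Both fed groups thus covered the same range, with means of 14.46 ± 0.24 in LWT and 14.46 ± 0.28 in LKO, and every fasted liver lay below every fed liver. The 2 fasted groups (11.89 ± 0.58 and 9.75 ± 0.99) overlapped by a single pair of mice, as LKO Fasted replicate 3 (11.02) read above LWT Fasted replicate 3 (10.92). In the fit the fall with fasting was 5.87-fold in LWT (log2 -2.55) and 23.9-fold in LKO (log2 -4.58), a difference of -2.03 on the log2 scale.

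This difference in Hsd3b5 was not even across slides. Within slides, the LKO difference of fasted from fed less the LWT one came to -2.14 on slide 1, -0.50 on slide 2 and -3.78 on slide 3 (log2), with 2 arrays of each group on each. On slide 3 the LKO Fasted arrays were the lowest of their group (8.83 and 8.66) and the LWT Fasted arrays the highest of theirs (12.35 and 12.62). On slide 2 the LKO Fasted arrays read 11.02 and 10.64 and the LWT Fasted arrays 11.83 and 10.92. The direction was the same on all 3 slides, and the size was not.

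Hsd3b3, an enzyme of the classical type known from kidney and liver, followed the pattern of Hsd3b5 at a smaller size. Its lowest, median and highest signals were 11.13, 11.32 and 11.57 in LWT Fed, 9.21, 9.65 and 10.29 in LWT Fasted, 11.03, 11.23 and 11.33 in LKO Fed, and 7.88, 8.42 and 8.92 in LKO Fasted. The fed groups overlapped, while all 6 LKO Fasted livers lay below all 6 LWT Fasted livers. Fasting lowered Hsd3b3 by 2.93-fold in LWT (log2 -1.55, SE 0.164, limma adjusted p = 1.39e-07) and by 6.70-fold in LKO (log2 -2.75, SE 0.181, limma adjusted p = 1.13e-10). The difference between these falls was itself past the threshold (log2 -1.19, SE 0.244, limma adjusted p = 0.00487), and it was -0.83, -0.85 and -1.74 within the 3 slides.

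Hsd3b6, the form known from steroid-making cells of the adrenal outer zone and the placenta, behaved in the same way. Its lowest, median and highest signals were 9.07, 9.33 and 9.63 in LWT Fed, 7.35, 7.62 and 8.31 in LWT Fasted, 8.96, 9.11 and 9.28 in LKO Fed, and 6.37, 6.78 and 7.03 in LKO Fasted. The fasted groups again did not overlap and the fed groups did. It fell 2.90-fold with fasting in LWT (limma adjusted p = 4.17e-08) and 5.14-fold in LKO (limma adjusted p = 2.57e-10), and the difference was -0.82 on the log2 scale (SE 0.223, limma adjusted p = 0.0271). That call was lost when LWT Fed replicate 5, LWT Fasted replicate 1 or LKO Fasted replicate 6 was left out, with log2 values between -0.97 and -0.68 over the 24 single omissions, and within slides the difference was -0.43, -0.70 and -1.16.

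Hsd3b1, the main form of gonads and adrenal cortex, was dim in these livers. Its brighter probe was well above background on all 6 arrays of each fed group, on 2 of 6 LWT Fasted arrays and on 0 of 6 LKO Fasted arrays. The mean signal was 6.47 ± 0.17 in LWT Fed, 5.67 ± 0.17 in LWT Fasted, 6.34 ± 0.18 in LKO Fed and 5.41 ± 0.10 in LKO Fasted (SD, n = 6), and in both genotypes every fasted array read below every fed array. The probe passed the filter on low signals through its fed groups alone, which favours a fall with fasting, so its fasting values are a description. The change was -0.78 in LWT on the log2 scale, against a fasted group mostly not well above background. In LKO it was at least 1.63-fold lower after fasting, a bound set by the lowest signals that were well above background. The size depends on the signal used: from the scanner's processed signal, which is background-subtracted, the same changes were -2.03 in LWT and -2.99 in LKO on the log2 scale. With both fasted groups this dim, the difference between the genotypes' changes has no firm size, at -0.14 in the fit and -0.96 from the processed signal. The second probe, A_51_P421418, changed by -0.45 in LWT on the log2 scale and was at least 1.47-fold lower in LKO.

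Hsd3b2, known as an enzyme of kidney and liver, gave different answers with different probes. On A_55_P2023114 the lowest, median and highest signals were 12.27, 12.45 and 12.80 in LWT Fed, 10.16, 10.61 and 11.15 in LWT Fasted, 12.26, 12.36 and 12.60 in LKO Fed, and 8.38, 9.16 and 9.81 in LKO Fasted. This is the pattern of Hsd3b3 and Hsd3b6, with the fed groups overlapping and the fasted groups apart. The fall was 3.42-fold in LWT (log2 -1.77, SE 0.181, limma adjusted p = 8.22e-08) and 9.01-fold in LKO (log2 -3.17, SE 0.200, limma adjusted p = 5.93e-11), with a difference of -1.40 (SE 0.269, limma adjusted p = 0.00309). Probe A_55_P2036547 gave a fall of 2.95-fold in LWT (limma adjusted p = 6.95e-06) and of 11.2-fold in LKO (limma adjusted p = 2.60e-10), with a difference of -1.93 (SE 0.329, limma adjusted p = 0.00116).

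The brightest probe named Hsd3b2, A_55_P2132812, read 13.28, 13.49 and 13.71 (lowest, median, highest) in LWT Fed, 13.37, 13.47 and 14.04 in LWT Fasted, 14.26, 14.64 and 14.72 in LKO Fed, and 13.16, 13.28 and 14.62 in LKO Fasted. Here the fed groups stood apart, LKO above LWT in all 6 livers, and fasting did not separate the LWT groups. LKO Fasted fell into 2 sets on this probe: replicates 1 and 2 read 14.37 and 14.62, within the range of LKO Fed, and the other 4 lay between 13.16 and 13.38. Fasting changed it by 0.10 in LWT (SE 0.186, limma adjusted p = 0.719) and by -0.99 in LKO (SE 0.206, limma adjusted p = 0.000488), with a difference of -1.09 (SE 0.277, limma adjusted p = 0.0197). Without LKO Fasted replicates 1 and 2 the change in LKO was -1.42 (limma adjusted p = 7.76e-09) and the difference -1.53 (limma adjusted p = 6.09e-07). Leaving out LWT Fed replicate 5, LKO Fasted replicate 5 or LKO Fasted replicate 6 alone ended the call of the difference, with log2 values from -1.36 to -0.91 over all single omissions, and within slides it was -0.33, -1.68 and -1.02. Over all genes, 441 of 21495 (2.05%) read more than 1.5-fold higher in both of these arrays than in each of the other 4 LKO Fasted arrays, and 24 (0.112%) read lower. These 2 arrays were picked on this probe and no other pair was counted. The shares therefore do not say whether they stand apart more than other pairs. On the other 8 probes of the family these 2 arrays lay less than 1.5-fold, in means, from the rest of their group.

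**Figure D2:**
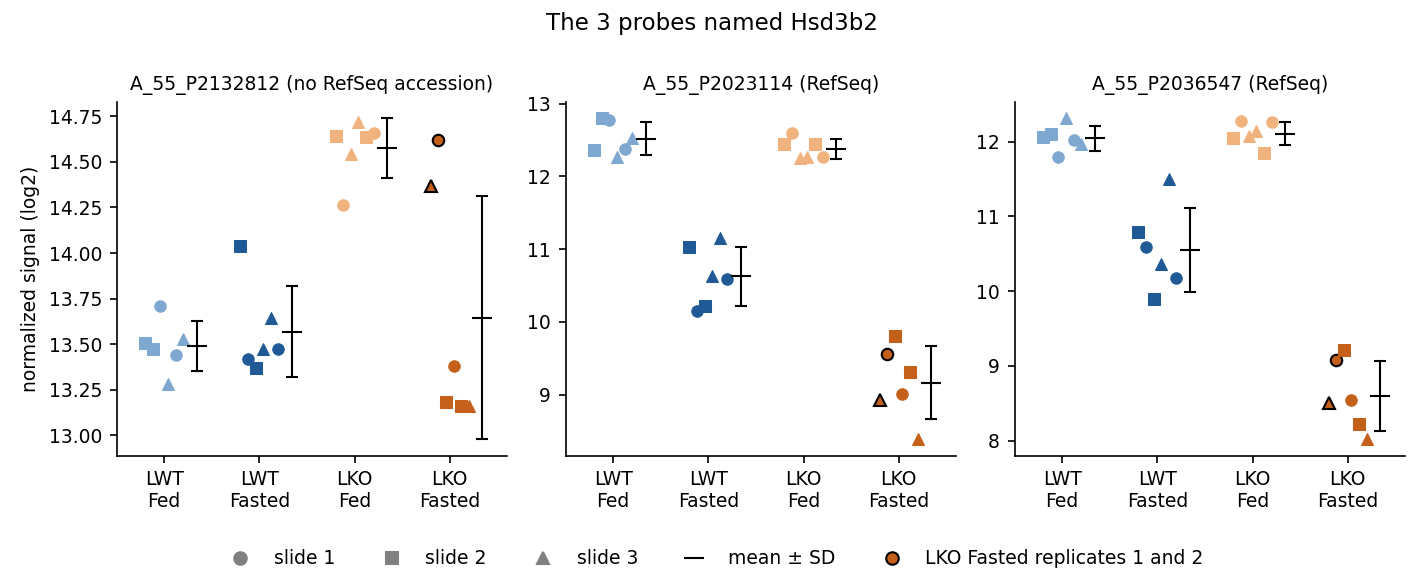
Normalized log2 signal (vertical axes) of the 3 probes named Hsd3b2 in the 4 groups, 1 point per mouse, with slide as the point's shape and mean ± SD beside (n = 6). LKO Fasted replicates 1 and 2, outlined, are the 2 high points of their group on A_55_P2132812 and lie among the others on the 2 probes with a RefSeq accession, which fell with fasting in both genotypes.

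Hsd3b7, the sterol enzyme of bile acid synthesis, was not called in any comparison. Its means were 15.84 ± 0.15 in LWT Fed, 15.86 ± 0.05 in LWT Fasted, 15.84 ± 0.10 in LKO Fed and 15.92 ± 0.19 in LKO Fasted (SD, n = 6). All 4 groups overlapped, with single arrays between 15.57 and 16.10. The change with fasting was 0.00 in LWT (SE 0.0689, limma adjusted p = 0.985) and 0.14 in LKO (SE 0.0761, limma adjusted p = 0.164).

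Counted over the 4 tested genes that were well above background on all 24 arrays, which leaves out Hsd3b1, fasting lowered 2 in LWT (Hsd3b3 and Hsd3b6), where 5.22% of all genes tested were called lower. In LKO it lowered 3 (those 2 and Hsd3b2 on its brightest probe), against 6.88% of all genes. None was called higher in either, where 4.80% (LWT) and 5.90% (LKO) of all genes were. On 2 of the 4 (Hsd3b3 and Hsd3b6) all 6 fasted arrays lay below all 6 fed arrays in each genotype, as 10.7% of all genes did in LWT and 11.2% in LKO. The fasting change was lower in LKO than in LWT for 3 genes, Hsd3b3 and Hsd3b6, which fell in both, and Hsd3b2, whose brightest probe was called lower in LKO and not in LWT, and 1.55% of all genes had a difference called in that direction. The family was proposed for the fasting change of 1 of its members, so nothing is read from these shares.

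**Figure D3:**
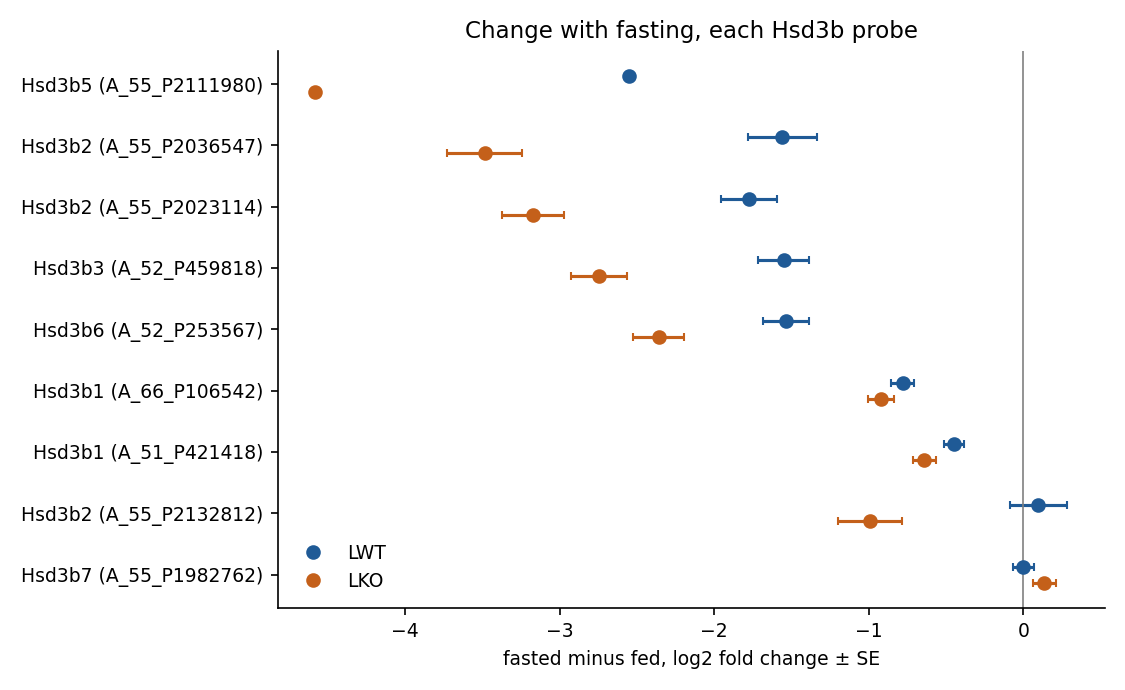
Change with fasting (fasted minus fed, log2 fold change, horizontal axis) of each of the 9 probes in LWT and LKO, with SE from the fit. Hsd3b5 is shown without an error bar because it was not tested. The 2 RefSeq probes of Hsd3b2 lie with Hsd3b5, Hsd3b3 and Hsd3b6, with LKO left of LWT, while A_55_P2132812 in LWT and Hsd3b7 in both genotypes lie near 0.

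In fed mice the genotypes differed at 1 of the 5 tested genes. This was Hsd3b2 on its brightest probe, 2.18-fold higher in LKO Fed (log2 1.12, SE 0.190, limma adjusted p = 0.000466), and 2.65% of all genes were called higher there, with 5.29% having all 6 LKO Fed arrays above all 6 LWT Fed arrays as this probe did. The call rests on that probe: A_55_P2023114 differed by -0.08 (SE 0.185, limma adjusted p = 0.815) and A_55_P2036547 by 0.02 (SE 0.226, limma adjusted p = 0.966). Hsd3b1 (-0.10), Hsd3b3 (-0.11), Hsd3b6 (-0.18) and Hsd3b7 (-0.03) were not called, with adjusted p between 0.391 and 0.811 in the same limma fit. No tested member was called lower, as 1.18% of all genes were. For Hsd3b5 the fed genotypes differed by 0.00 on the log2 scale.

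In fasted mice 2 of the 5 tested genes were lower in LKO, Hsd3b3 by 2.47-fold (log2 -1.31, SE 0.178, limma adjusted p = 2.99e-05) and Hsd3b6 by 2.01-fold (log2 -1.01, SE 0.162, limma adjusted p = 0.000168). Over all genes 2.28% were called lower in this comparison, and 4.58% had all 6 LKO Fasted arrays below all 6 LWT Fasted arrays, as both of these did. None was called higher, as 1.77% of all genes were. Both RefSeq probes of Hsd3b2 were also lower, A_55_P2023114 by 2.79-fold (limma adjusted p = 2.18e-05) and A_55_P2036547 by 3.75-fold (limma adjusted p = 1.18e-05), whereas A_55_P2132812 differed by 0.03 (SE 0.202, limma adjusted p = 0.931). Hsd3b1 was well above background on 2 LWT Fasted arrays and on no LKO Fasted array, so no direction is given for it here. Hsd3b5 read 4.06-fold lower in LKO Fasted (log2 -2.02), a description only.

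Markers of cell types were summed within each list, on signals before normalization. Differences in brightness between arrays therefore enter these sums, and the brightest gene of a list can carry its sum. Values of single markers are not given. The summed signal of 6 cholangiocyte markers (Krt19, Krt7, Epcam, Sox9, Spp1 and Cftr) lay between 10.90 and 11.18 (log2) in LWT Fasted and between 9.21 and 10.27 in LKO Fasted, and between 10.95 and 11.55 in LWT Fed and 9.62 and 10.78 in LKO Fed. This cholangiocyte sum was thus lower in LKO in both states. Its part in the results was not tested. The 7 hepatocyte markers on the array (Alb, Ttr, Apoa1, Apob, Trf, Cps1 and Ahsg) kept within 20.67 and 20.85 in all groups. Of the adrenal and gonadal markers, Cyp11a1, Cyp11b1 and Cyp11b2, which define steroid-making cells, were not well above background on any array. Of that list of 9, 8 genes were on the array and 5 of them were measured (Cyp21a1, Star, Nr5a1, Mc2r and Akr1b7). All 8 summed to between 11.21 and 11.71 in LWT Fed, 10.69 and 11.55 in LWT Fasted, 10.66 and 11.15 in LKO Fed, and 10.49 and 10.99 in LKO Fasted. For the marker lists of kidney, pancreas, Kupffer cells, sinusoidal endothelium, stellate cells and erythroid cells the ranges of both fasted groups overlapped. The kidney list lay apart with fasting in LKO, between 8.34 and 8.58 in LKO Fed and between 8.63 and 8.99 in LKO Fasted. The pancreas list lay apart between the fed genotypes, from 11.74 to 12.06 in LWT Fed and from 11.37 to 11.71 in LKO Fed. So did the adrenal and gonadal list, by the ranges above. Normalization moved single arrays by more than the kidney and pancreas gaps: Hsd3b7 in LKO Fed replicate 1 read 15.44 before and 15.75 after. No difference is read from these gaps. Of the 6 genes of the kidney and of the pancreas list only Slc34a1 and Aqp2 (kidney) and Amy2a5 (pancreas) passed the filter on low signals. The part of these lists in the results was not tested. One array stood apart on the 6 Kupffer cell markers (Clec4f, Cd5l, Vsig4, Adgre1, C1qa and Marco), LKO Fasted replicate 6, with a sum of 16.50 against 14.08 to 15.08 in the rest of its group and at most 15.27 in the other groups. Without it the fasted difference between genotypes was -1.15 for Hsd3b3 (limma adjusted p = 0.000107) and -0.90 for Hsd3b6 (limma adjusted p = 0.000762), and the difference between fasting changes was -1.03 for Hsd3b3 (limma adjusted p = 0.0102) and -0.72 for Hsd3b6 (limma adjusted p = 0.0622).

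Some members also varied together from mouse to mouse, though not evenly across the groups. With each group's mean taken off, Hsd3b3 and Hsd3b6 had a Pearson r of 0.87 (Spearman 0.82) over the 24 arrays. The A_55_P2023114 reading of Hsd3b2 had an r of 0.91 with Hsd3b3 (Spearman 0.84) and of 0.82 with Hsd3b6 (Spearman 0.82). Leaving out the 2 arrays farthest from the median on 1 probe of a pair kept these 3 values between 0.81 and 0.87. Taking off slide as well gave 0.85 to 0.97. Each group had 2 arrays on a slide, so that step leaves mirrored values, 1 difference for every 2 arrays. Hsd3b5 was less close, with an r of 0.69 to Hsd3b3, 0.73 to A_55_P2023114 and 0.50 to Hsd3b6, which became 0.58, 0.56 and 0.34 without the 2 farthest arrays and 0.80, 0.72 and 0.56 with slide taken off as well. The brightest Hsd3b2 probe had an r of -0.13 with Hsd3b5 and of 0.26 with A_55_P2023114, and these were 0.50 and 0.66 once slide was taken off too. Hsd3b7 stayed between -0.18 and 0.27 with every other probe of the family. Within single groups of 6 the values ranged widely. That of Hsd3b3 with Hsd3b6 was 0.94 in LWT Fed, 0.96 in LWT Fasted, 0.31 in LKO Fed and 0.84 in LKO Fasted. A_55_P2023114 with Hsd3b3 gave 0.71, 0.98, 0.32 and 0.97 in the same order, and with Hsd3b5 it gave -0.10, 0.68, 0.22 and 0.90. The other RefSeq probe of Hsd3b2, A_55_P2036547, had an r of 0.65 with A_55_P2023114 over all arrays but of -0.62 in LWT Fed and -0.01 in LKO Fed, against 0.75 and 0.86 in the fasted groups. These values share arrays and their normalization and are descriptions.

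**Figure D4:**
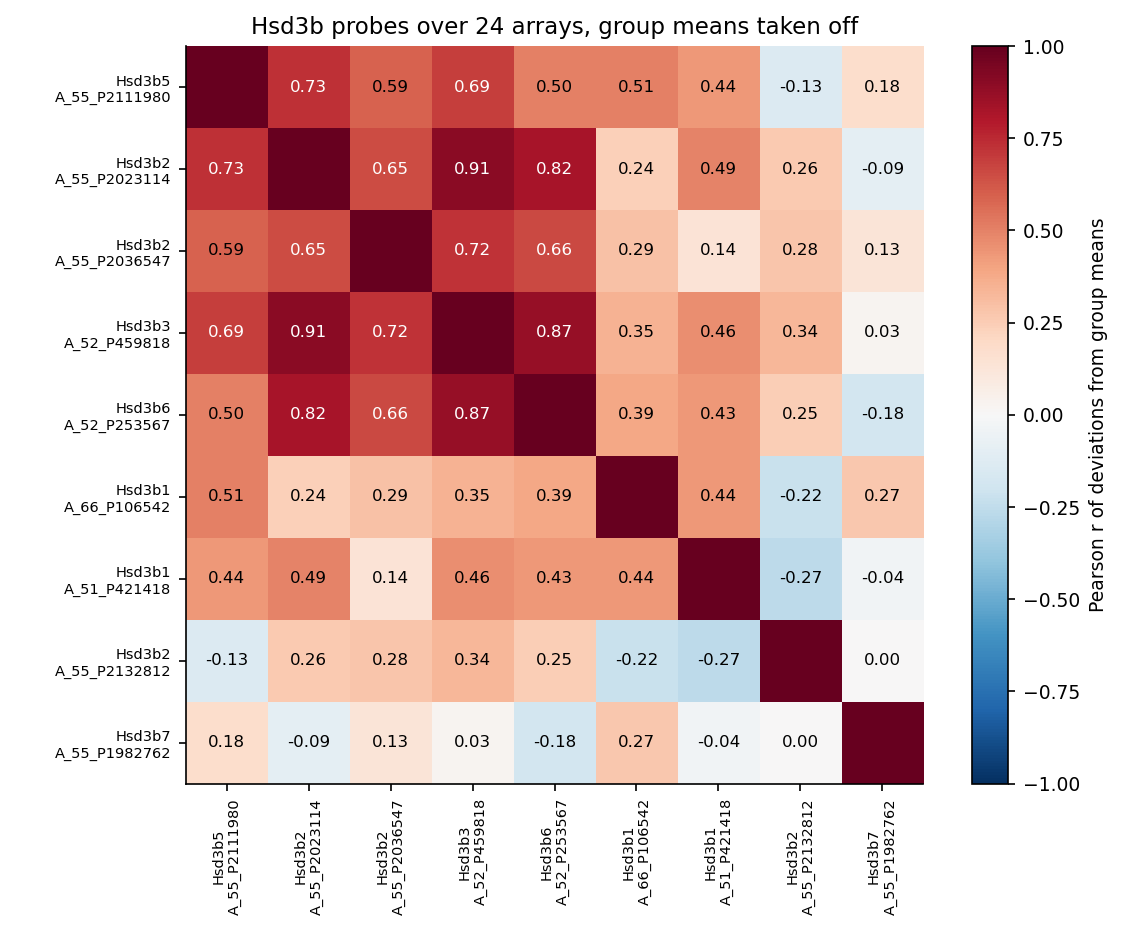
Pearson r between the 9 Hsd3b probes over 24 arrays after each probe's group means were taken off, where rows and columns are probes and colour gives r from -1 to 1. The probes of Hsd3b3 and Hsd3b6 and A_55_P2023114 of Hsd3b2 form the block of highest values (0.82 to 0.91), and Hsd3b7 and A_55_P2132812 lie outside it.

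Among the genes outside the family whose profile over the 24 arrays was most like that of Hsd3b5, by the root mean square difference of centred log2 values, were Col27a1 (0.730), Aacs (0.844), Cyp2c70 (0.888) and Serpina9 (0.922). Aacs encodes an enzyme that turns acetoacetate into substrate for lipid synthesis. Among the members, Hsd3b3 (0.885) had 3 of 21459 outside genes closer to Hsd3b5 than itself, Hsd3b6 (1.04) had 11 and Hsd3b1 (1.62) had 378. Far less alike were Hsd3b2 on its brightest probe (1.95), with 4440 outside genes closer, and Hsd3b7 (2.07), with 12816. When group means were taken off, so that only differences between mice of a group counted, other genes led: Gm16793 (r = 0.76), Plcg1 (0.75), Mfhas1 (0.74), Deptor (0.73) and Aldh3b3 (0.72). Gm16793 and Mfhas1 overlap on chromosome 8 by 1232 bases in RefSeq (GRCm38.p6), so they are not independent readings if transcripts are shared.

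Upstream sequence was compared because members moved together. Of the pairs of members, Hsd3b5 and Hsd3b3 were by far the most alike in the 250 bases before the RefSeq start. Their best local alignment held 153 identical bases over 203 positions (75.4%), whereas no other pair aligned over more than 38 positions. They shared a run of 24 bases, which 3 of 32851 RefSeq promoters contain, those of Hsd3b5 and of the 2 starts of Hsd3b3 read here. These 2 starts lie inside the span of Hsd3b3, which reaches 98764540, and sequence before that end was not examined. The shared run ends 130 bases before the Hsd3b5 start (chr3:98645535-98645784, minus strand). It ends 83 bases before 1 of the Hsd3b3 starts (chr3:98762411-98762660, minus strand), and is in capitals here (RefSeq, GRCm38.p6).
Hsd3b5 promoter: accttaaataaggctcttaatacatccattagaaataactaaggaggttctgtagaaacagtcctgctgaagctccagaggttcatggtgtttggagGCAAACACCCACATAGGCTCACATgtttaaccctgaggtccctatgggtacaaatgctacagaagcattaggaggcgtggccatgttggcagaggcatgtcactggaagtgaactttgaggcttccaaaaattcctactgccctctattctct
Hsd3b3 promoter: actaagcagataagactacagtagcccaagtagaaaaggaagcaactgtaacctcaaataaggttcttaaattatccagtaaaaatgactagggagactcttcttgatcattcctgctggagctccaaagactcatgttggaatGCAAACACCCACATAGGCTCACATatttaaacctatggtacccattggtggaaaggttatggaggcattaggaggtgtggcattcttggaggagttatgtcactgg
The Hsd3b6 promoter, whose gene had the higher r with Hsd3b3, aligned with that of Hsd3b3 over 23 positions only.

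A set of 5 motifs was searched on both strands of these 250 bases. TTCNNNGAA, bound by STAT5 and BCL6, was present in Hsd3b1 (114 bases before the start) and Hsd3b7 (13 bases before it), and in 7.02% of all promoters. TGTTCT, part of a glucocorticoid or androgen receptor site, was present once in Hsd3b2 and at 2 places in Hsd3b6, and in 16.1% of all promoters. AAGGTCA (NR5A and related receptors, 4.08% of promoters), ATTGAT (HNF6, 6.72%) and TGTTTAC (FOXO and FOXA, 3.17%) were in none of the 6 genes. The printed promoters of Hsd3b5 and Hsd3b3 held none of these letters, which says nothing of sites elsewhere.

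Around the family, 20 of the 21 other enzymes listed for steroid reduction and oxidation in liver were tested. In LWT, fasting raised 4 and lowered 4 of them, with a median change of -0.18 against -0.01 over all genes. In LKO it raised 6 and lowered 9, with a median of -0.38 against -0.02. The lowest in both was Akr1c14, an aldo-keto reductase acting on 3-keto steroids, at -1.46 in LWT (SE 0.157, limma adjusted p = 1.77e-07) and -2.06 in LKO (SE 0.173, limma adjusted p = 3.76e-09). The highest in both was Hsd17b11, a lipid droplet dehydrogenase, at 1.32 and 1.47. Akr1d1, the 5β-reductase of bile acid and steroid breakdown, fell in LKO (-1.45, limma adjusted p = 5.88e-09), and in LWT its change was -0.55 (limma adjusted p = 0.000507, under 1.5-fold).

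**Figure D5:**
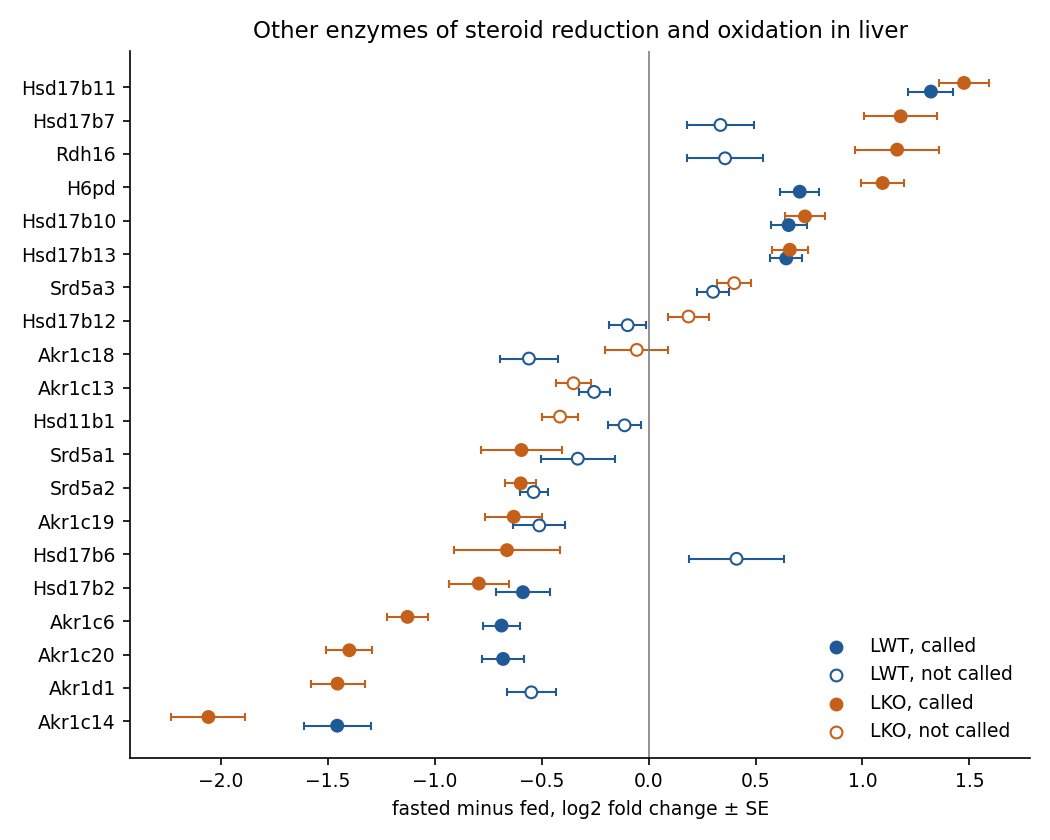
Change with fasting (log2 fold change ± SE, horizontal axis) in LWT and LKO of the 20 other steroid enzymes tested, ordered by the change in LKO, where filled points were called. Akr1c14 lies lowest and Hsd17b11 highest in both genotypes.

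Calls between genotypes were made for some of these enzymes. In fasted mice Akr1d1 (-1.09), Akr1c14 (-0.75) and Akr1c20 (-0.79) were lower in LKO and Hsd17b7, a dehydrogenase shared with cholesterol synthesis, was higher (0.97). In fed mice Hsd17b6, which oxidises androgen metabolites, was higher (1.09, limma adjusted p = 0.00233) and Rdh16 lower (-0.70, limma adjusted p = 0.0115). The fasting change differed between genotypes for Akr1d1 (-0.91, limma adjusted p = 0.00256), Akr1c20 (-0.72, limma adjusted p = 0.00462) and Hsd17b7 (0.84, limma adjusted p = 0.0293).

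The route from cholesterol to steroid hormones was measured in part. Of its 12 listed genes 7 passed the filter on low signals, and Cyp11a1, Cyp11b1, Cyp11b2, Cyp19a1 and Hsd17b3 did not. Por, the electron donor of microsomal P450 enzymes, rose in both genotypes (1.65 in LWT and 1.14 in LKO), as did Cyp17a1 (0.71 and 0.79). Cyp21a1 fell in both (-0.69 and -0.85). Fdx1, the mitochondrial electron carrier, was called lower in LKO (-0.92), and in LWT its change was -0.50 (limma adjusted p = 2.2e-07, under 1.5-fold). In the bile acid pathway, where Hsd3b7 acts, 16 of 17 genes were tested, 2 rising and 3 falling in LWT and 3 rising and 4 falling in LKO. Cyp7a1, its rate-limiting enzyme, fell by 1.41 (limma adjusted p = 0.00474) and by 2.12 (limma adjusted p = 0.000314) on the log2 scale, and Cyp8b1, which sets cholic acid output, rose by 0.90 and 1.13.

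Male-biased genes listed with Hsd3b5 went both ways with fasting. Of 17 tested, fasting raised 2 (Elovl3 1.70, Cyp2u1 0.67) and lowered 2 (Nudt7 -1.91, Selenbp2 -0.87) in LWT, where 4.80% and 5.22% of all genes were called. In LKO it raised 3 and lowered 2, against 5.90% and 6.88%, and the medians were -0.01 in both genotypes. No fasting change was called different between genotypes, but only 1.55% of all genes were called lower there, so nothing is read from that. The lowest was Selenbp2 (-1.02, limma adjusted p = 0.0591). In fasted mice 3 were called lower in LKO and 0 higher, with a median of -0.17 against -0.004 over all genes. Among the 3 that fasting raised in LKO were Cyp4a12a and Cyp4a12b, near-identical copies that one probe may not separate. Both were lower in LKO than in LWT, in fed mice (-1.27 and -1.23, limma adjusted p = 0.000118 and 0.000114) and in fasted mice (-0.71 and -0.62, limma adjusted p = 0.0109 and 0.0206). Selenbp2 was also lower in LKO Fasted (-0.68, limma adjusted p = 0.0464), after a fasting fall that read -1.88 in LKO. Susd4 was higher in LKO Fed (0.64, limma adjusted p = 0.0408). Of 12 female-biased genes tested, 3 rose in LWT (Cyp17a1, Fmo2 1.20 and Acot3 3.14) and none fell, and in LKO the same 3 rose and Cyp2a4 fell (-1.20), the one gene of that list called between genotypes (-1.05 in fasted mice, limma adjusted p = 0.00311). Of 11 growth hormone pathway genes tested, Socs2 and Socs3, feedback inhibitors of the receptor, rose in both genotypes (1.47 and 2.58 for Socs2, 1.67 and 1.97 for Socs3), and Bcl6, a repressor that shares DNA sites with STAT5, fell in both (-1.74 and -2.46). In LKO, Ghr (-0.72) and Igfals (-0.98), which encodes a carrier subunit for circulating IGF1, were called lower as well, and in LWT their changes were -0.18 and -0.38. The growth hormone receptor gene Ghr was lower in LKO Fasted than in LWT Fasted (-0.59, limma adjusted p = 3.31e-05), where Socs2 (2.27) and Socs3 (0.92) were higher. Of the relatives outside the 6 genes, Nsdhl, an enzyme of cholesterol synthesis, fell in LWT (-1.59) and LKO (-1.07), and Sdr42e1 was not called.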

How the data were processed

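Liver RNA of 24 mice was labelled with Cy3 and hybridised to Agilent SurePrint G3 mouse arrays, 1 mouse per array. Per the file headers the scanner output came from Agilent Feature Extraction 10.10.1.1, with probe positions on mm9. The deposited files give unscaled spot intensities and flags. No probe spot was flagged as saturated. The authors also deposited log2 values, filtered, corrected for washing bath and quantile-normalized, which served as an alternative.

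From the median signals, spots flagged as non-uniform or outlying were dropped (90 values), spots of a probe were averaged, and 32197 of 56605 probes were kept, those that 5 or more of a group's 6 arrays read well above background. Values were taken to log2 and quantile-normalized. Fits used limma 3.58.1 (R 4.3.3) with array weights and slide as a term, in place of the washing bath, which was not given in the sources used here. All 4 groups entered 1 fit, and counts use 21495 genes with 1 probe each. The fit was tested on simulated data.

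The members and the pathway and marker lists were chosen with earlier results of these data known. The number of arrays limits the precision, and p-values measure the spread between mice. Alignments used Biopython 1.88. Replicate numbers do not pair the mice: over 36 pairs of same-numbered arrays, deviations from group means correlated between -0.179 and 0.275. The named genes were the members, the genes most like Hsd3b5 and, from each list, the extremes and the calls of short call lists. Of the genes most like Hsd3b5, 1 is not reported here.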

Additional observations from a re-analysis of the deposited data

Results flagged for a closer look

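For 3 tested members the fasting change differed between genotypes by the limma interaction term, with the lower change in LKO: Hsd3b2 on its brightest probe (-1.09, adjusted p = 0.0197), Hsd3b3 (-1.19, adjusted p = 0.00487) and Hsd3b6 (-0.82, adjusted p = 0.0271), all on the log2 scale. The Hsd3b2 value joins a flat LWT reading to a fall in LKO on that probe, whereas its 2 RefSeq probes fell in both genotypes. Among the listed genes outside the family, the term was past the threshold for Akr1d1 (-0.91), Akr1c20 (-0.72) and Hsd17b7 (0.84) of the steroid enzymes and for Cyp2a4 (-1.09, adjusted p = 0.0436) of the female-biased genes. Over 36 sets of 6 arrays (9 probes in 4 groups), no array of a member stood apart from its group by Dixon's criterion, which would by chance mark about 1 set in 20. That criterion looks at 1 array at a time and cannot mark 2 that stand apart together, as LKO Fasted replicates 1 and 2 did on A_55_P2132812, with a gap of 0.99 log2 units to the other 4. What lies behind these differences was not tested.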

How the results depend on the processing

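Of 189 recomputed counts of called members, 184 stayed within 1.5 times the main count. Many of these left out a single array, often one outside the groups compared, and a change from 3 to 2 or to 4 counts as within. The share therefore says little of stability. The single call in fed mice became 0 both when the probes of a gene were averaged and when Hsd3b2 was read by its brightest RefSeq probe, an alternative chosen after seeing the data. The interaction count of 3 fell to 1 without the filter on dim probes, and ranged from 1 to 3 over the single omissions of an array, reaching 1 without LWT Fed replicate 5 and without LKO Fasted replicate 6. Hsd3b3 kept its call in all 24 omissions. With a replicate block the 5 counts were 3, 4, 1, 2 and 3, as in the main fit, and no call of a member changed. The first 2 of these, for fasting, include Hsd3b1, whose fasting values are a description, so its calls say nothing of stability.

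Hsd3b2 reversed with the probe. Its fasting change in LWT was -1.08 for the mean of its probes, -1.77 for A_55_P2023114, which is also the brightest RefSeq probe, and -1.56 for A_55_P2036547. Its genotype difference in fasted mice was -1.12, -1.48 and -1.91 in the same order, and in fed mice A_55_P2023114 gave -0.082. Without LKO Fasted replicates 1 and 2, left out together after seeing the data, the fasted difference on the brightest probe was -0.40 (limma adjusted p = 0.0195). For Hsd3b1, whose fasting values are a description, the change in LWT was under 1.5-fold with normexp background correction (log2 -0.57). The processed signal put its genotype difference in fasted mice past the threshold. Both fasted groups were too dim for a size or a direction there. Hsd3b5 kept the direction of its fasting changes and of their difference in every setting run, the difference ranging from -2.37 to -1.77 over single omissions. Hsd3b1, near background when fasted, is the member whose fold is limited by signal. What moved these values was not tested.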
